A study of Mus musculus with 2 samples.

Results

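A set of 6 genes of glucose production were followed through CpG methylation of mouse liver: Pcx, Pck1, Pck2, Fbp1, Slc37a4 and G6pc. The cytosines described are those with at least 5 reads in both libraries that lie within a gene's RefSeq span or the 5 kb on each side of it. They number 750 of the 2521919 cytosines that passed this minimum in the whole series, with 440 at Pcx, 151 at Slc37a4, 71 at Pck1, 48 at Fbp1, 26 at Pck2 and 14 at G6pc. The fasted library came from liver of 12-week-old CD-1 mice kept without food for 12 hr, and the control library from control liver of CD-1 mice of the same age, with standard chow given freely in the colony. CD-1 is an outbred stock, so animals differ in sequence, and the number of mice behind each library is not stated in the labels. Reduced representation bisulfite sequencing reads the cytosines of fragments cut at short recognition sequences, here those of MspI and TaqαI, and reports the percent of reads in which a cytosine stayed unconverted. With 1 library per condition there is no replicate spread, so each test compares those 2 libraries and not the conditions. Whole liver was used, and a level is an average over all its cell types. Coordinates are in mm10.

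Gluconeogenesis makes glucose from lactate, amino acids and glycerol, and in a fast the liver is its main site. Pyruvate carboxylase, encoded by Pcx, makes oxaloacetate in mitochondria, and the phosphoenolpyruvate carboxykinases of the cytosol (Pck1) and of mitochondria (Pck2) turn it into phosphoenolpyruvate. Fructose-1,6-bisphosphatase (Fbp1) removes a phosphate further along the pathway. The transporter encoded by Slc37a4 carries glucose 6-phosphate into the endoplasmic reticulum, where the catalytic subunit encoded by G6pc releases free glucose. Transcription of Pck1 and G6pc is known to respond within hours to glucagon, acting through cAMP, and to insulin. CpG methylation at a promoter is commonly low where a gene is in use.

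Which CpGs the assay could read at the gene starts is best seen on the promoters themselves. The sequences run 5′ to 3′ along the gene from 250 bases before to 50 bases after the listed start, are those of RefSeq on GRCm38.p6, and were chosen because the results at gene starts turn on them. Capitals mark CpGs measured on at least 1 strand in both libraries.
Pck1, chr2:173152823-173153122, plus strand: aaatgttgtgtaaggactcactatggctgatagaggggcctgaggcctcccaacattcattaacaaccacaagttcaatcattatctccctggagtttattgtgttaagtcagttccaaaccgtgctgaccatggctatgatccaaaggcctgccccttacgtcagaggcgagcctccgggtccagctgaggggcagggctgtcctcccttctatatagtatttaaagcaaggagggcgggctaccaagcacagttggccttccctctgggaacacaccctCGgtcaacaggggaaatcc
G6pc, chr11:101367466-101367765, plus strand: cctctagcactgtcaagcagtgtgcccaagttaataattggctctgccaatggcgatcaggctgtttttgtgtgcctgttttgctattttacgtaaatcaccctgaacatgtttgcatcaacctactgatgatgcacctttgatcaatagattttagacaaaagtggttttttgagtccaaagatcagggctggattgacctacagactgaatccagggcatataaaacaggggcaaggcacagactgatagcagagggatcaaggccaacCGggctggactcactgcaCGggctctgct
Fbp1, chr13:62888233-62888532, minus strand: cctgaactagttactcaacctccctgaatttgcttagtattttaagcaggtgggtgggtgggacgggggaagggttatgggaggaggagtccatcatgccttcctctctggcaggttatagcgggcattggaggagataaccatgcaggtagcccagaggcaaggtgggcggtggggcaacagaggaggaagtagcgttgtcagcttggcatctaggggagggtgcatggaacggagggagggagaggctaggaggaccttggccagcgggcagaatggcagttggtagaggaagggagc
Pck2, chr14:55540016-55540315, plus strand: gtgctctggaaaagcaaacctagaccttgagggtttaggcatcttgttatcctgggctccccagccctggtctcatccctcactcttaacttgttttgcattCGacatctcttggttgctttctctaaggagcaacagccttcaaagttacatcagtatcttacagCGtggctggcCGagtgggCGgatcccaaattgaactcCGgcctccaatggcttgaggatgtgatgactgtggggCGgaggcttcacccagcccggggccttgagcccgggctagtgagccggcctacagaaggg
Lrfn4, whose start lies inside Pcx, chr19:4615618-4615917, minus strand: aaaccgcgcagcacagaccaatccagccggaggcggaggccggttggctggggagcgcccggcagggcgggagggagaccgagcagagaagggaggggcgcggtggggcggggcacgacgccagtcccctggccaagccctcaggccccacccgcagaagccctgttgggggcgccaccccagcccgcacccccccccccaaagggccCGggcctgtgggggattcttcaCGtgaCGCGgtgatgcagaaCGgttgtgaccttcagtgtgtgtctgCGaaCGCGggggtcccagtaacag

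The promoters of Pck1, G6pc and Fbp1 hold 6, 4 and 6 CpGs, against a median of 7 and quartiles of 3 and 21 over 25748 promoters. The assay measured 1 of them at Pck1, 2 at G6pc and 0 at Fbp1. At Pck2 it measured 6 of 9, and at the first listed starts of Slc37a4 and Pcx 10 of 11 and 6 of 20. Recognition letters of MspI, CCGG, occur in 53.5% of all promoters, and those of TaqαI, TCGA, in 22.2%. Both are palindromes, and neither was found in the printed Fbp1 promoter. The letters TGACG, the core of the site bound by the cAMP-responsive factor CREB, were searched on both strands and occur in 21.1% of promoters. The Pck1 promoter holds them in the reverse direction (cgtca) at -90 from the start, where they overlap neither recognition sequence, and that CpG was not measured. Slc37a4 holds them at -61 from its first listed start and again before its second, with neither CpG measured. Lrfn4 holds them at -18, and that CpG was measured.

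In the mean over their cytosines, the 6 genes stood at very different levels, and the libraries differed by 8.03 points at Pck1, 6.52 at G6pc, -4.94 at Fbp1 and less than 1 point at Pck2, Pcx and Slc37a4. G6pc averaged 66.7% in the fasted library and 60.2% in the control library, and Fbp1 50.4% and 55.3%. Pck1 averaged 37.5% in the fasted library and 29.5% in the control library, and Pcx 35.4% and 36.1%. Pck2 averaged 18.96% in the fasted library and 18.01% in the control library, and Slc37a4 5.04% and 4.93%. Over all 750 cytosines the means were 30.5% in the fasted and 30.2% in the control library, with 213 cytosines higher, 213 lower and 324 equal. In both libraries 359 of the 750 were below 10% and 119 above 80%.

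**Figure D1:**
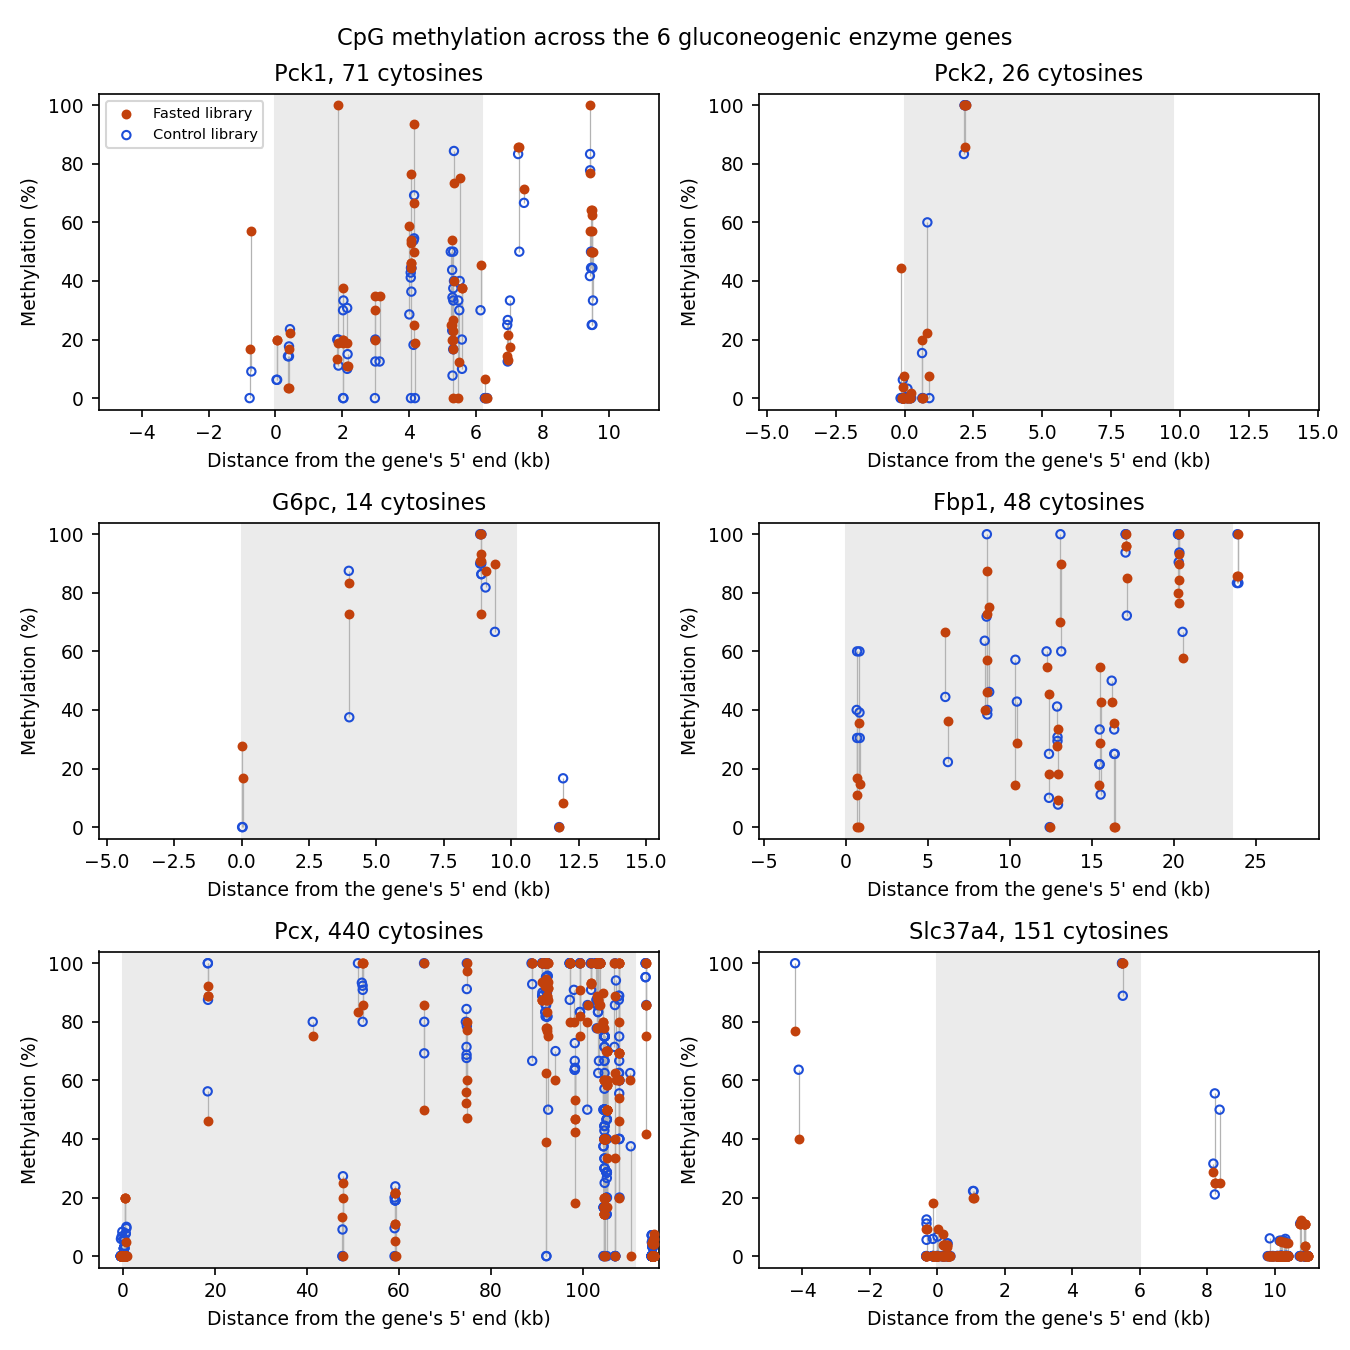
Methylation (%) of each measured cytosine in the fasted (filled) and control (open) library against its distance in kb from the 5′ end of the gene, with the gene span shaded. Filled and open points mostly lie together near 0% around the starts of Pck2, Pcx and Slc37a4, and stand apart at the start of Fbp1, at several places in Pck1 and in the 3′ part of Pcx.

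Each cytosine was tested for unequal methylated reads (Fisher's exact test, two-sided), with Benjamini-Hochberg adjustment over 2466496 autosomal cytosines, and a call needed both a difference of 25 points and an adjusted p below 0.05. Of the 750 none was called, with 0 higher (background 0.0302%) and 0 lower (background 0.0246%), against 0.0548% called in either direction over all cytosines. The smallest adjusted p was 0.674, at Pck1. An unadjusted p under 0.05 was reached by 17 of them, or 2.27%, where the background was 1.85%. A difference of at least 25 points was common at this depth. It was reached by 52 cytosines higher in the fasted library (6.93%, background 3.82%) and by 56 lower (7.47%, background 3.59%). Pcx held 33 of the higher and 41 of the lower ones. Many of these lie in short stretches near its 3′ end, described below, where neighbouring cytosines mostly share reads. Median coverage was 14 reads in each library. The 84 cytosines with exactly 5 reads in the shallower library averaged 43.8% in the fasted and 52.0% in the control library, and the 40 just outside the minimum, with 4 reads, 56.5% and 55.5%. Many of the 84 lie in a single Pcx stretch, chr19:4615124-4615229. Its 42 cytosines averaged 25.4% in the fasted and 53.7% in the control library.

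Neighbouring cytosines of these genes mostly share reads. Of 594 pairs of same-strand neighbours within 100 bp, 396 had equal read numbers in both libraries. In another 36 pairs the read number of one was exactly 2 times that of the other in both libraries. At Pck1, position 173153448 had 1 methylated of 29 reads in the fasted and 2 of 14 in the control library, while position 173153478 on the same strand had 2 of 58 and 4 of 28. Every count at the second position was thus a doubling of that at the first. Why some reads count doubly was not tested. Tests that sum reads over neighbours treat them as independent, so their p-values are too small and their intervals too narrow. Differences of gene means are therefore given with 2 intervals at 95%: one treats each read as independent, and a wide one lets cytosines within 100 bp of each other share all their error. Both cover counting error only.

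**Figure D2:**
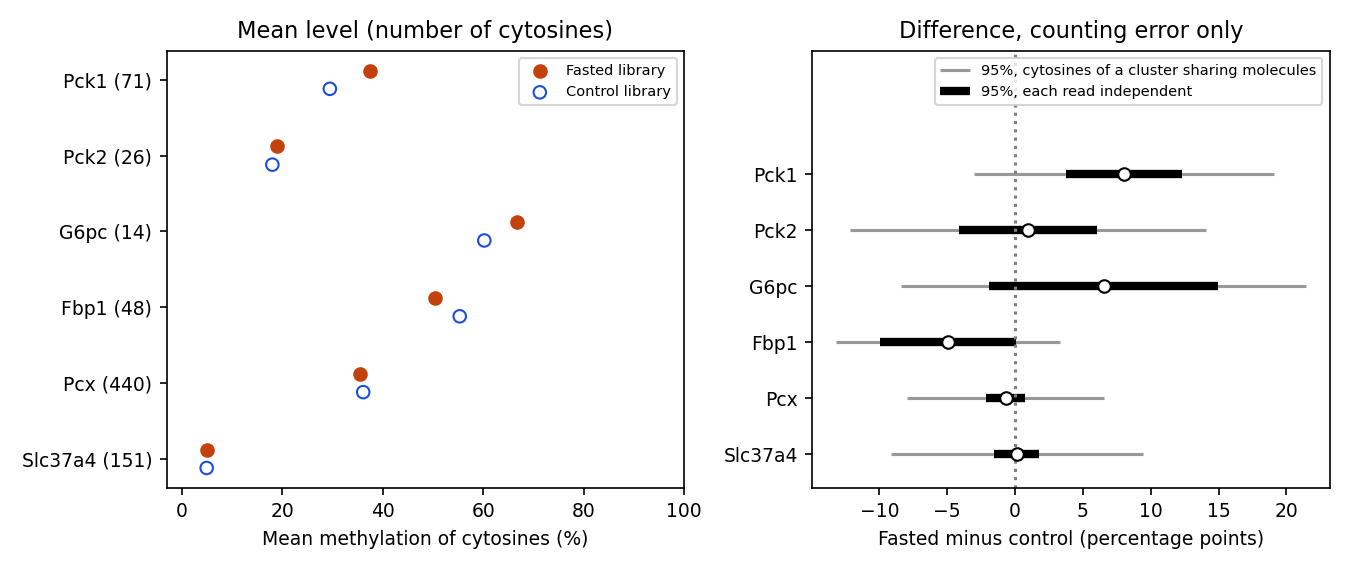
Left, mean methylation (%) over the cytosines of each gene in the fasted (filled) and control (open) library. Right, fasted minus control in percentage points with both intervals at 95%, thick for independent reads and thin for shared molecules. The thin interval includes 0 for each of the 6 genes.

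Pyruvate carboxylase has the longest of the genes and the most cytosines. Pcx spans chr19:4510472-4621752 on the plus strand, and its first listed start was nearly free of methylation in both libraries. Its 108 cytosines within 1000 bp of the first listed start averaged 0.5996% in the fasted and 0.927% in the control library. From summed reads 5 of 2641 were methylated in the fasted and 30 of 2476 in the control library, with 3 cytosines higher and 20 lower. Their test gave an adjusted p of 0.00066 (Fisher's exact test, Benjamini-Hochberg), but the difference of the means, -0.33 points, was far below the 10 points that a called window required. In rat a downstream promoter of this gene is known to serve liver and fat and an upstream one the pancreatic islets. At the second listed start of the mouse gene, position 4594319, 0 cytosines within 1000 bp were measured.

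Inside Pcx the level was high along most of the gene. Of its 27 clusters, defined as runs of at least 3 measured cytosines with gaps of at most 100 bp, 11 were above 80% in both libraries and 5 below 10%. The clusters between 101742 and 103632 bp from the 5′ end stood at 94.3 to 96.2% in the fasted and 93.0 to 97.7% in the control library. A pair of clusters at 47713 and 59040 bp was low within this methylated stretch. The first had 14.6% in the fasted and 9.09% in the control library, and the second 11.4% and 16.2%. The 3′ flank held 106 cytosines, and 100 of them formed 1 cluster at the start of the neighbouring gene Rce1, at 0.535% in the fasted and 0.824% in the control library.

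A run of 4 neighbouring clusters, here called blocks, near the 3′ end of Pcx differed between the libraries, 3 of them higher and 1 lower in the fasted one. They lie around the start of Lrfn4, a gene for a synaptic adhesion protein that runs the other way inside Pcx. The first block, chr19:4614918-4615014, averaged 62.8% in the fasted and 24.2% in the control library, with 10 of 10 cytosines higher. Next to it, chr19:4615124-4615229 averaged 25.4% in the fasted and 53.7% in the control library, with 42 of 42 cytosines lower. The third block, chr19:4615602-4615709, holds the Lrfn4 start and averaged 54.7% in the fasted and 29.6% in the control library, with 17 cytosines higher and 1 lower. The fourth, chr19:4617336-4617523, averaged 60.7% in the fasted and 36.7% in the control library, with 5 of 7 cytosines higher and 0 lower.

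The adjusted p of these blocks was 0.00033, 1.06e-08, 0.00296 and 0.0225 in the order given (Fisher's exact test on summed reads, Benjamini-Hochberg over 223945 autosomal clusters). All 4 were called, at an adjusted p under 0.05 and at least 10 points. Few reads stand behind them. Reads per cytosine ran from 5 to 10 in the fasted and 6 to 8 in the control library in the first block, from 5 to 7 and 6 to 10 in the second, and from 10 to 12 and 7 to 15 in the third. In the fourth, with 5 plus-strand and 2 minus-strand cytosines, they ran from 5 to 10 and 5 to 16. The second block was read on both strands, which are sequenced as separate molecules. Its 21 plus-strand cytosines averaged 35.2% in the fasted and 64.1% in the control library, and its 21 minus-strand cytosines 15.5% and 43.2%. The third block differed mainly on the plus strand, with 62.2% in the fasted and 22.2% in the control library, against 47.2% and 37.0% on the minus strand. With every count halved, a setting that called 0.232% of all clusters, the differences were 46.8, -34.3, 27.8 and 24.9 points, and of the 4 only the second kept its call, at an adjusted p of 5.10e-05 (Fisher's exact test). Halving rounded methylated and unmethylated reads down separately. With so few reads this also shifts the levels, so the halved differences are not comparable in size with those above. At 10 or more reads 9 cytosines of the third block were left, at a difference of 10.2 points (adjusted p = 0.594, Fisher's exact test), and the other blocks gave no cluster. With neighbours within 200 bp the fourth averaged a difference of 16.7 points over 8 cytosines and was not called (adjusted p = 0.225, Fisher's exact test). The cytosine that joined it, position 4617655, went the other way, with 6 methylated of 10 reads in the fasted and 16 of 17 in the control library.

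**Figure D3:**
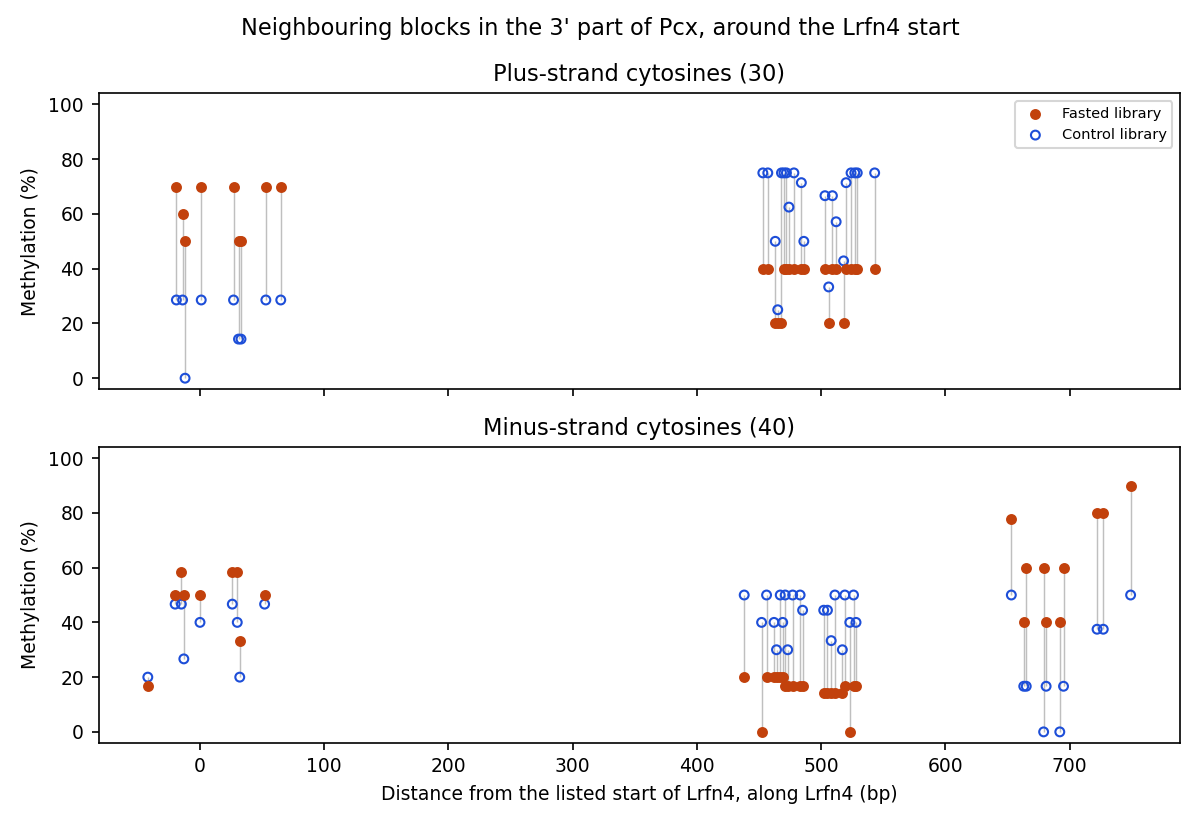
Methylation (%) of plus-strand (top) and minus-strand (bottom) cytosines in the fasted (filled) and control (open) library against the distance in bp along Lrfn4 from its listed start. The fasted library is higher on the plus strand at the start, lower on both strands in the next block along Lrfn4, and higher again in the block after it, where the 10 cytosines all lie on the minus strand.

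Averaged over all of Pcx, with blocks in both directions, the difference was -0.70 points (-2.12 to 0.725, and -7.96 to 6.57 with the wide interval). Another 5 cytosines of Pcx, at chr19:4608691-4608778, averaged 41.4% in the fasted and 66.2% in the control library. All 5 were lower, and the cluster did not pass the test (adjusted p = 0.174, Fisher's exact test). A single CpG stood out inside a highly methylated run. Its plus-strand cytosine at position 4602525 had 5 methylated of 8 reads in the fasted and 0 of 11 in the control library, and its minus-strand cytosine 7 of 18 and 0 of 11. At position 4602520, 5 bp away, 8 of 8 reads were methylated in the fasted and 11 of 11 in the control library. The largest single decreases at Pcx were at position 4615199, with 1 of 5 reads in the fasted and 6 of 8 in the control library, and at position 4608707, with 2 of 11 and 8 of 12. Position 4617505 had as large an increase as 4602525, with 5 of 8 reads in the fasted and 0 of 5 in the control library.

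Pck1 was the member with the largest mean difference over single cytosines with both flanks included, though not under each alternative. The gene spans chr2:173153073-173159274 on the plus strand, and its cytosines averaged 8.03 points higher in the fasted library (3.72 to 12.3, and -3.06 to 19.1 with the wide interval). Of the 71 cytosines 43 were higher and 24 lower. The gene body averaged 33.5% in the fasted and 26.8% in the control library over 49 cytosines, and the 3′ flank 47.4% and 38.3% over 20. The 5′ flank held 2 cytosines. Position 173152298 had 3 methylated of 18 reads in the fasted and 0 of 9 in the control library, and position 173152350 had 4 of 7 and 1 of 11. With the strands of each CpG summed the mean difference was 6.16 points at Pck1 and 8.80 at G6pc. Over the gene span alone it was 6.62 points at Pck1 and 8.31 at G6pc. Weighting each read equally it was 4.91 points at Pck1 and -5.65 at G6pc.

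Among 17584 genes with at least 50 measured cytosines, a mean at least 5 points higher in the fasted library was reached by 160 genes, or 0.91%, and one at least 5 points lower by 170, or 0.967%. Their differences had a median of -0.003 points, and 95% of them lay between -3.52 and 3.36. These genes held a median of 121 cytosines. The Pck1 difference was smaller at deeper cytosines. The 30 Pck1 cytosines with 5 to 9 reads in the shallower library averaged 44.5% in the fasted and 30.8% in the control library, with 25 higher and 4 lower. The 41 with at least 10 reads in both averaged 32.4% in the fasted and 28.5% in the control library, with 18 higher and 20 lower. With a minimum of 20 reads 11 cytosines were left, and their mean difference was -2.95 points.

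**Figure D4:**
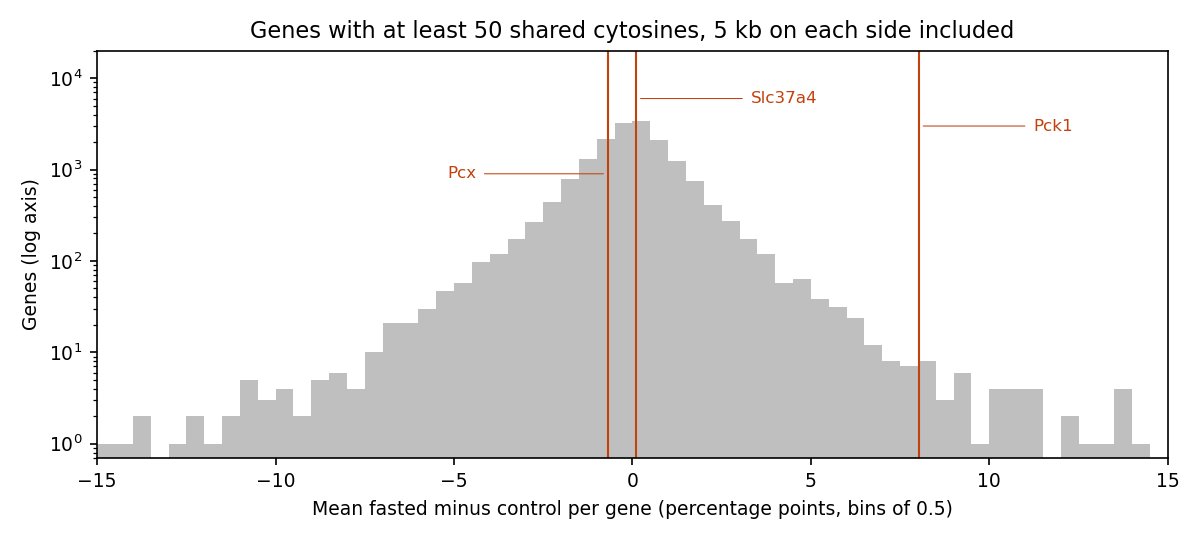
Number of genes (log axis) by mean difference, fasted minus control, in percentage points, over genes with at least 50 measured cytosines. Lines mark Pcx (-0.70), Slc37a4 (0.11) and Pck1 (8.03), and Pck1 lies in the upper tail.

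The 5 clusters in the first 2994 bp of Pck1 stood at 11.4 to 44.0% in the fasted and 10.8 to 18.6% in the control library. The 44.0% is the mean of 3 cytosines at chr2:173154926-173154961, of which 1, on the minus strand, had 5 of 5 reads methylated. From summed reads that cluster had 27.8% in the fasted and 17.2% in the control library, and was not called. Within 1000 bp of the start 8 cytosines averaged 19.9% in the fasted and 11.4% in the control library, without passing the test (adjusted p = 1, Fisher's exact test), and with a minimum of 10 reads 4 cytosines there differed by -5.99 points. The measured CpG nearest the start, at position 173153105, had 1 of 5 reads methylated in the fasted and 1 of 16 in the control library. A cluster at 375 to 435 bp stood at 11.4% in the fasted and 17.4% in the control library. The farthest cluster, at 9426 to 9519 bp, stood at 63.2% in the fasted and 46.9% in the control library, without a call (adjusted p = 0.308, Fisher's exact test). A cluster at 5256 to 5352 bp, the most deeply read of the gene, had 29.4% in the fasted and 38.3% in the control library. Another at 6948 to 7030 bp had 16.5% and 24.4%, and neither was called. Just past the 3′ end, at 6280 to 6343 bp, 3 cytosines had 2.22% in the fasted and 0% in the control library.

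Of 11 Pck1 clusters 1 was called, chr2:173157086-173157254. It lies 4013 to 4181 bp from the 5′ end and averaged 52.8% in the fasted and 36.1% in the control library, with 11 of 12 cytosines higher (summed reads, adjusted p = 0.0226 by Fisher's exact test). Its 6 plus-strand cytosines averaged 54.1% in the fasted and 30.1% in the control library, and its 6 minus-strand cytosines 51.4% and 42.2%. Position 173157128, the deepest of the cluster, had 26 methylated of 34 reads in the fasted and 12 of 28 in the control library. These read numbers are exactly 2 times the 17 and 14 of position 173157086 on the same strand. The summed test counted them in full. Also in the cluster, position 173157135 had 9 methylated of 17 reads in the fasted and 0 of 14 in the control library, the second largest single increase of the gene. The largest was at position 173154961, with 5 of 5 reads in the fasted and 1 of 9 in the control library. Its partner on the other strand, position 173154960, had 3 of 16 and 2 of 10. The largest decreases were at position 173158554, with 0 of 6 reads in the fasted and 2 of 6 in the control library, and at position 173158400, with 6 of 30 and 16 of 32. With every count halved the difference of the cluster was 17.0 points and it was not called (adjusted p = 0.864, Fisher's exact test).

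**Figure D5:**
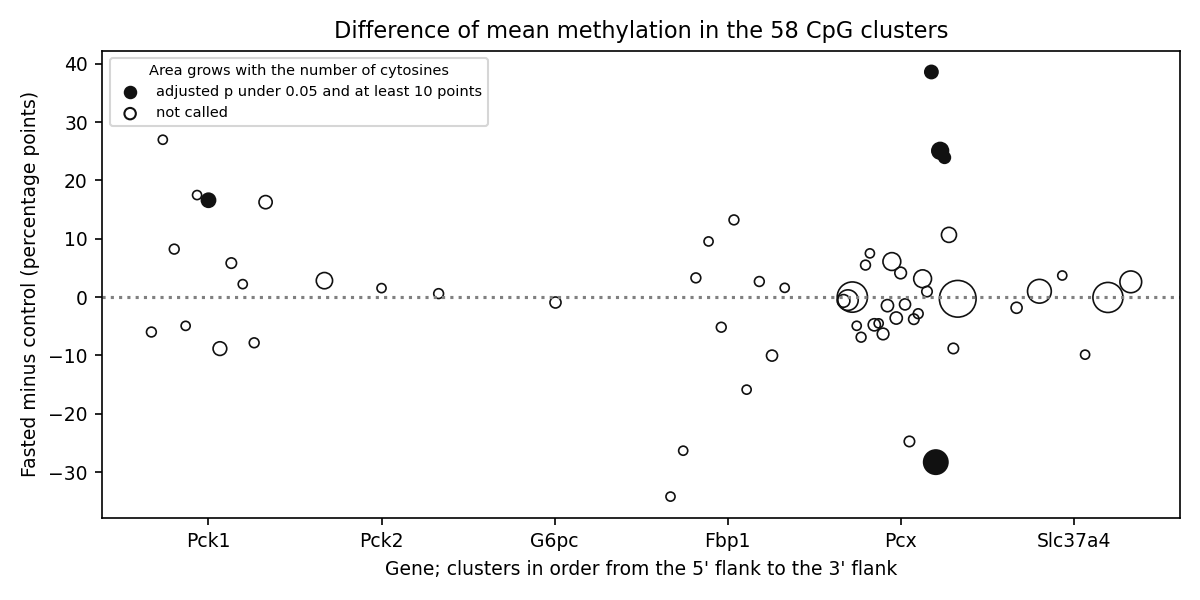
Difference of mean methylation, fasted minus control in percentage points, in each of the 58 clusters, ordered within a gene from the 5′ to the 3′ flank, with circle area growing with the number of cytosines. Filled circles were called: 1 at Pck1 at 16.6 points, and 3 higher and 1 lower at Pcx between 38.6 and -28.3 points.

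Pck2, the mitochondrial counterpart of Pck1, had the profile of a gene with an unmethylated start. It spans chr14:55540263-55550020 on the plus strand, and all of its measured cytosines lay between -145 and 2236 bp from the 5′ end. The 17 cytosines of chr14:55540118-55540506, across the start, averaged 3.38% in the fasted and 0.557% in the control library, from 10 of 510 and 2 of 354 summed reads (adjusted p = 0.713, Fisher's exact test). Of the 10 methylated reads 4 were at position 55540118, where 4 of 9 reads were methylated in the fasted and 0 of 7 in the control library, the largest increase of the gene. This CpG is the first one in capitals in the printed promoter, and the next, at position 55540182, had 0 of 9 and 0 of 7. Another 4 of the 10 were at position 55540256, 7 bp before the 5′ end, with 4 of 54 reads in the fasted and 0 of 36 in the control library. These read numbers are exactly 2 times the 27 and 18 of position 55540219 on the same strand, so some of its reads may count doubly. The largest decrease was at position 55541092, with 2 of 9 reads in the fasted and 6 of 10 in the control library. Farther in, chr14:55542419-55542499 was nearly fully methylated, at 96.4% in the fasted and 95.8% in the control library. The mean difference over the gene was 0.957 points (-4.11 to 6.02, and -12.2 to 14.1 with the wide interval).

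Fbp1 was the member lower near its start in the fasted library. The gene spans chr13:62864753-62888298 on the minus strand, and 0 cytosines of its 5′ flank were measured. Its 6 cytosines within 1000 bp of the start lie 673 to 859 bp inside the gene. They averaged 13.1% in the fasted and 43.3% in the control library, with 6 of 6 lower. From summed reads 13 of 86 were methylated in the fasted and 31 of 84 in the control library, and the window was called lower (adjusted p = 0.0289, Fisher's exact test, over 15272 gene starts). It was the 1 called of 5 measured member starts, where the background was 1.27%, and 0.694% for lower calls.

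The 3 plus-strand cytosines of the Fbp1 start were read deeper and differed less than the 3 on the minus strand. On the plus strand position 62887597 had 3 methylated of 27 reads in the fasted and 7 of 23 in the control library, position 62887454 had 5 of 14 and 9 of 23, and position 62887439 had 4 of 27 and 7 of 23. On the minus strand each position had 6 reads in the fasted and 5 in the control library. Position 62887455 had 0 methylated in the fasted and 3 in the control library, the largest decrease of the gene, position 62887598 had 1 and 3, and position 62887625 had 0 and 2. With a minimum of 10 reads the 3 plus-strand cytosines were left, and they differed by -12.8 points (adjusted p = 0.261, Fisher's exact test).

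The 10 clusters of Fbp1 had no common direction and 0 were called. The 6 cytosines near the start fell in the clusters at 673 to 701 bp and at 843 to 859 bp from the 5′ end. Tested as clusters they differed by -34.2 and -26.3 points, without a call (adjusted p = 0.227 and 0.567, Fisher's exact test). The cluster at 20249 to 20333 bp from the 5′ end averaged 87.3% in the fasted and 97.4% in the control library, and that at 15463 to 15537 bp 35.1% and 21.8%. The largest single increases were at position 62879666, with 7 of 8 reads in the fasted and 5 of 13 in the control library, and at position 62872761, with 9 of 21 and 2 of 18. Position 62879694 had the second largest decrease, with 6 of 13 reads in the fasted and 5 of 5 in the control library. The mean difference over the gene was -4.94 points (-9.93 to 0.061, and -13.2 to 3.34 with the wide interval), and -1.31 points without the 6 cytosines near the start. As at Pck1 it was larger at shallow cytosines. The 17 with 5 to 9 reads in the shallower library averaged 45.3% in the fasted and 56.9% in the control library, and the 31 with at least 10 reads in both 53.2% and 54.4%, a difference of -1.25 points. Weighting each read equally it was -1.44 points, and over the 8 cytosines with at least 20 reads -6.24. Another 10 cytosines of Fbp1 had at least 5 reads in the fasted library and 0 in the control library, and were not compared.

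Slc37a4 had the lowest mean level of the 6 genes. It spans chr9:44396946-44402966 on the plus strand, and of its 151 cytosines 27 were higher, 18 lower and 106 equal. Of its 6 clusters 4 were below 10% in both libraries, at its own start and at neighbouring genes. Within 1000 bp of its first start 46 cytosines averaged 1.73% in the fasted and 1.10% in the control library, a difference of 0.631 points (-1.95 to 3.21, each read independent). The 3′ flank held 98 cytosines, of which 70 lie in the gene Trappc4 and 25 in Rps25. A cluster of 66 there averaged 0.359% in the fasted and 0.420% in the control library, and one of 33 that runs past the 5 kb limit averaged 2.95% and 0.337%, with 9 cytosines up and 0 down (adjusted p = 0.371 by Fisher's exact test). Inside the gene chr9:44402421-44402445 was fully methylated, at 100% in the fasted and 96.3% in the control library.

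Larger gaps at Slc37a4 lay outside the gene. The largest decreases were in the 3′ flank at position 44405174, with 5 of 20 reads in the fasted and 10 of 18 in the control library, and at position 44405317, with 5 of 20 and 9 of 18. The largest increases were at position 44396806, with 2 of 11 reads in the fasted and 0 of 18 in the control library, and at position 44407716, with 1 of 8 and 0 of 8. Of the 6 clusters 0 were called. The mean difference over the gene was 0.11 points (-1.57 to 1.79, and -9.17 to 9.40 with the wide interval).

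G6pc, which ends the pathway, was the least covered. It spans chr11:101367716-101377903 on the plus strand, and 14 cytosines were measured, 12 of them in the gene. At its start 2 CpGs were read, those in capitals in the printed promoter. Position 101367737 had 5 methylated of 18 reads in the fasted library (27.8%, 95% exact interval 9.69 to 53.5) and 0 of 8 in the control library (0 to 36.9). Position 101367755 had 3 of 18 and 0 of 8. The intervals overlap, and with 2 cytosines the start had too few for the test. Farther in, a cluster of 6 at chr11:101376566-101376614 stood at 91.3% in the fasted and 92.1% in the control library, while the 2 cytosines of the 3′ flank, at positions 101379495 and 101379642, had 0 of 18 and 1 of 12 reads in the fasted and 0 of 10 and 1 of 6 in the control library. The largest increase was at position 101371711, with 8 of 11 reads in the fasted and 3 of 8 in the control library, and the largest decrease at position 101376613, with 8 of 11 and 10 of 10. The mean difference was 6.52 points (-1.89 to 14.9, and -8.42 to 21.5 with the wide interval), and weighting each read equally it was -5.65 points.

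Over all 6 genes 4 of 58 clusters were called higher, where the background was 0.711%, and 1 lower, where it was 0.649%. In either direction 1.36% of all autosomal clusters were called, and an unadjusted p under 0.05 was reached by 12 of the 58, against a background of 10.3%. Of the 5 calls 4 lie side by side at Pcx. With a minimum of 10 reads, where 1.97% of all clusters were called, 1 of 39 clusters was called, that of Pck1. The strands of a CpG, read in the same library from different molecules, give a yardstick. At 61 CpGs of the 6 genes with a mean level of 20 to 80%, the strands differed by a median of 21.4 points in the fasted and 18.1 in the control library. At the same CpGs the libraries differed by a median of 28.5 points on the plus and 19.0 on the minus strand. Over 108282 such CpGs of all autosomes the strands differed by a median of 13.3 points in the fasted and 13.9 in the control library, and the libraries by 13.9 on the plus and 13.8 on the minus strand. Of the 61 CpGs 37 lie in Pcx, many of them in the blocks described. At the 16 in Pck1 the strands differed by a median of 16.3 points in the fasted and 19.4 in the control library, and the libraries by 13.2 on the plus and 16.03 on the minus strand.

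Other genes of the pathway were mostly unmethylated at their starts in both libraries. Of a list of 61 genes of glycolysis, of the steps that feed gluconeogenesis and of its regulators, 47 starts were measured, and 40 were below 10% in both libraries. In 23 the mean was higher and in 24 lower in the fasted library, with a median difference of -0.05 points, against 0.00116 points over 15272 genes. One was called, higher, where the background for higher calls was 0.576%. The gene is Gpi1, which interconverts glucose and fructose phosphates, with 16.4% in the fasted and 5.45% in the control library (adjusted p = 6.99e-44, Fisher's exact test). With the strands of each CpG summed its difference was 9.23 points, under the 10 points needed, and Gpi1 was not called (adjusted p = 3.20e-44, Fisher's exact test). Pklr, the pyruvate kinase of liver, had 21.8% in the fasted and 11.1% in the control library, and Gckr, which binds and restrains glucokinase, 16.9% and 30%. Trib3, which binds the kinase Akt, had 18.3% in the fasted and 22.6% in the control library. None of these 3 passed the test. Mpc1, Pgam1 and Pparg had adjusted p of 0.000962, 0.00612 and 0.0299 (Fisher's exact test). Their differences of 0.573, 1.25 and -0.947 points were under the 10 points needed for a call.

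The libraries were close in depth. The fasted library held 51276705 reads over cytosines and the control library 49253627, a read counting once for each cytosine it covers, with a median of 9 and 8 reads per cytosine. Of 10 hepatocyte genes the starts of 4 were measured, at 3.33 to 29.4% in the fasted and 0 to 32.96% in the control library, and of 5 leukocyte genes 3, at 64.1 to 88.9% and 60 to 97.4%. Of 4 endothelial genes 1, Kdr, was measured, at 3.72% in the fasted and 4.07% in the control library. Starts of Alb, Apoa1 and Ttr were not measured. Apob, the apolipoprotein of liver-made particles, stood at 10.3% in the fasted and 23.9% in the control library, without passing the test (adjusted p = 0.208, Fisher's exact test). Cell makeup was not tested as a source of the differences above.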

How the data were processed

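Reduced representation bisulfite sequencing covered 1 fasted and 1 control liver library, grouped by sample title. Per the submitters' processing notes, tools were bcl2fastq 1.8.4 and Bismark 0.14.3, with build mm10. Alignment settings and duplicate handling: not given in the sources used here. The deposited files give, per CpG cytosine and strand, methylated and total read counts, a percent methylated in the same text field, and a score. In each row the deposited score was 1000 times the methylated fraction of the counts, to within 0.5. Counts were used, with positions counted from 1. Cytosines listed inside RefSeq promoters fell on a CG of the GRCm38.p6 sequence in 266241 of 266241 cases.

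The 6 genes and all lists were chosen with earlier results of these data known. Named cytosines are the 2 largest increases and 2 largest decreases of each gene. Named pathway genes are those with an adjusted p under 0.05 and the 2 largest changes in each direction. Other cytosines are given because they lie at a start or in a described cluster, and were chosen after their values were seen.

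Spans and starts came from RefSeq tables of GRCm38.p6, using the first listed start. Exons and introns were not analysed here. Tests used the 19 autosomes. Calls needed an adjusted p under 0.05 and 25 points for cytosines, or 10 points for clusters and for start windows (1000 bp on each side, at least 3 cytosines). A cluster that reached the 5 kb limit was taken whole. Errors of mean differences used the methylated share after adding 1 methylated and 1 unmethylated read, and exact intervals are Clopper-Pearson at 95%. Reads carry no molecular identifiers, so intervals cover counting error only. Python 3.11.15, numpy 2.4.6, pandas 2.3.3 and scipy 1.17.1 were used, and the tests were run on simulated data first. Alternatives were other read minimums, windows, gaps, thresholds and weights, summed strands, halved counts and reads scaled down to their number per cytosine. Halved counts were rounded down, methylated and unmethylated reads apart.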

Additional observations from a re-analysis of the deposited data

How the results depend on the processing

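The number of called cytosines stayed at 0 under all 8 alternatives tried, which were minimums of 10 and 20 reads, summed strands, halved counts, differences of 10 and 50 points, the gene span alone and 2 kb on each side. The number of called clusters, 5, was 4 at 20 points, where Pck1 lost its call (background 0.831%), 3 with neighbours within 200 bp (1.51%), 1 with a minimum of 10 reads (1.97%), 1 with counts halved (0.232%) and 0 with reads scaled down to their number per cytosine. That last setting counts reads as if all cytosines of a cluster or start were read by the same molecules, and by design leaves each difference as it was. It called 2 of 223945 clusters and 2 of 15272 starts anywhere. With so few calls it cannot tell one lost call from another. With neighbours within 200 bp the first 2 blocks near the 3′ end of Pcx merged into 1 of 52 cytosines, so the block that was higher turned to -15.4 points. Called member starts, 1, were 0 with 500 bp on each side, where Fbp1 had fewer than 3 cytosines, 0 with a minimum of 10 reads and 0 with scaled reads. Called starts of the pathway list, 1, were 0 with scaled reads and 0 with strands summed, which was added after seeing the data. Of the mean differences, Fbp1 was -1.25 points with a minimum of 10 reads, Pck1 moved to -2.95 points with a minimum of 20 reads, G6pc to -5.65 and Pcx to 1.64 points with each read weighted equally, and the start of Pck1 turned to -5.99 points with a minimum of 10 reads. The cause was not tested. G6pc had 0 cytosines with 20 reads. Removing called clusters, added after seeing the data, left Pck1 at 6.28 and Pcx at -0.34 points. No paired analysis was possible because each group held 1 library. A median of 14 reads per cytosine limits what could be called.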
